A study of Mus musculus with 96 samples.

Results

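Genes that mark enteroendocrine cells of the gut, 10 in all, were followed through RNA-seq of mouse intestinal organoids. They were chosen by name, with earlier results of these data known: the peptide hormone genes Gcg, Pyy, Cck, Gip, Sct, Nts and Sst, the granins Chga and Chgb, and Tph1 for serotonin. All 10 were found among the 55536 gene identifiers of the expression tables. Organoids are epithelial cultures grown from intestinal crypts, here of C57BL/6 mice. The labels name 4 genotypes: APC+/+;BMAL1+/+ (control), APC+/+;BMAL1-/- (Bmal1-null), APCmin/-;BMAL1+/+ (Apc-min) and APCmin/-;BMAL1-/- (Apc-min Bmal1-null). Every group received 0.1 µM dexamethasone, a glucocorticoid used to set cell clocks to a common phase, for 1 h, and was collected every 2 h from 24 to 46 h. Per the labels, the medium was EN for both APCmin/- genotypes and ENR for the rest, names that commonly stand for EGF and Noggin without or with R-spondin, a protein that strengthens Wnt signalling. The APCmin/- genotypes also have library numbers 2 to 48 against 49 to 96, so the effects of Apc genotype, medium and library series cannot be told apart. Each genotype comes from 2 organoid lines, the line of a library is not in the labels, and p-values therefore measure the spread between libraries only.

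Enteroendocrine cells are scattered hormone-secreting cells of the gut epithelium that arise from crypt stem cells through a progenitor marked by the transcription factor Neurog3. They sense nutrients, store peptide hormones in dense-core granules with granins, and release them by regulated exocytosis, and the enterochromaffin type makes serotonin. High Wnt signalling after loss of Apc, and the clock protein Bmal1 (gene symbol Arntl), are known to affect intestinal differentiation and daily gene expression respectively.

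The tables hold 88 of the 96 labelled libraries, 22 per genotype, with 28.8 to 48.1 M uniquely mapped reads. The percentage of reads that the aligner listed as unmapped under "too short" averaged 6.73 in control and 6.00 in Bmal1-null libraries. It averaged 1.299 and 1.305 in the corresponding Apc-min libraries. Expression is given as TPM, the share of transcripts per length scaled to a fixed total in each library. Arntl averaged 14.9 TPM in control organoids against 8.67 in Bmal1-null ones. It averaged 11.1 TPM with Apc-min alone and 4.86 with both mutations. The labels do not give the deleted part of the gene. At 28 h, the libraries labelled Apc-min number 9 and Apc-min Bmal1-null number 10 went against their labels. On a scale over 1019 genes from 0 (the other Apc-min libraries) to 1 (the other Apc-min Bmal1-null libraries) they scored 0.99 and -0.23. The 21 others of each genotype scored -0.3 to 0.27 and 0.94 to 1.08. Where this pair sets an extreme value or a call of the 10 genes, the value without it is given too. Libraries of a genotype and time are also told apart here by their lower or higher number. Xist, an X-linked RNA, ran from 0 to 0.06 TPM in the lower-numbered and from 39.63 to 84.94 TPM in the higher-numbered Bmal1-null libraries, so these sets are not exchangeable. In Apc-min Bmal1-null libraries it ran from 0 to 0.1 and from 41.75 to 88.37 TPM in the same order. It was at most 0.25 TPM in control and 0.12 TPM in Apc-min libraries. The compared Bmal1 genotypes thus also differ in Xist, and the part of this difference in the results was not tested. The islet genes Ins1 and Ins2 were at 0 in all 88 libraries, and summed levels of 10 neuron and glia genes were at most 11.12 TPM.

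In control organoids all 10 genes were detected in every library, and together they reached 827 to 1065 TPM (mean 937 ± 70.4, SD, n = 22). Gcg (ENSMUSG00000000394, GRCm38 chr2:62474530-62483650), which encodes proglucagon and in intestinal L cells yields glucagon-like peptides, was the most abundant. Its control values ran from 189.85 to 356.71 TPM with a median of 254.7. Sct (ENSMUSG00000038580, chr7:141278330-141279133) encodes secretin, which drives bicarbonate secretion from the pancreas, and ran from 131.51 to 235.45 TPM with a median of 156.3. Pyy (ENSMUSG00000017311, chr11:102106676-102107832), an appetite-lowering L cell peptide, ran from 90.37 to 169.21 TPM around a median of 123.2. Cck (ENSMUSG00000032532, chr9:121489824-121495694), cholecystokinin, which contracts the gallbladder, ran from 67.03 to 147.38 TPM around 98.84. These 4 hormones were the top of the order by mean level, and Cck and the next gene, Chgb, differed by less than 1 SD.

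Nts (ENSMUSG00000019890, chr10:102481756-102490486) encodes neurotensin, a peptide that aids fat absorption, and ran from 50.74 to 96.48 TPM with a median of 74.55. Sst (ENSMUSG00000004366, chr16:23889573-23890958), somatostatin, which restrains the release of other hormones, ran from 16.47 to 30.35 TPM around 21.13. Gip (ENSMUSG00000014351, chr11:96024545-96030831), an incretin of K cells that raises insulin release, ran from 3.1 to 23.76 TPM around 10.31. Gip was the most variable of the 10 in control, with a coefficient of variation of 67.6%, against 8.995% for Chgb, the least variable. The granins Chga (ENSMUSG00000021194, chr12:102554969-102565028) and Chgb (ENSMUSG00000027350, chr2:132781278-132795079), acidic proteins of secretory granules, had control medians of 82.34 and 87.84 TPM. Tph1 (ENSMUSG00000040046, chr7:46644641-46672537), the rate-limiting enzyme of serotonin synthesis outside the brain, was the lowest, from 2.96 to 5.54 TPM. No other annotated gene overlapped any of the 10 loci.

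By mean TPM, a level per transcript length, the order in control was Gcg, Sct, Pyy, Cck, Chgb, Chga, Nts, Sst, Gip and Tph1. Bmal1-null organoids had the same order. Neighbours that differed by no more than the larger SD were Cck and Chgb, Chgb and Chga, Chga and Nts, and Gip and Tph1 in control, and Pyy and Cck, and Chga and Nts, in Bmal1-null organoids.

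**Figure D1:**
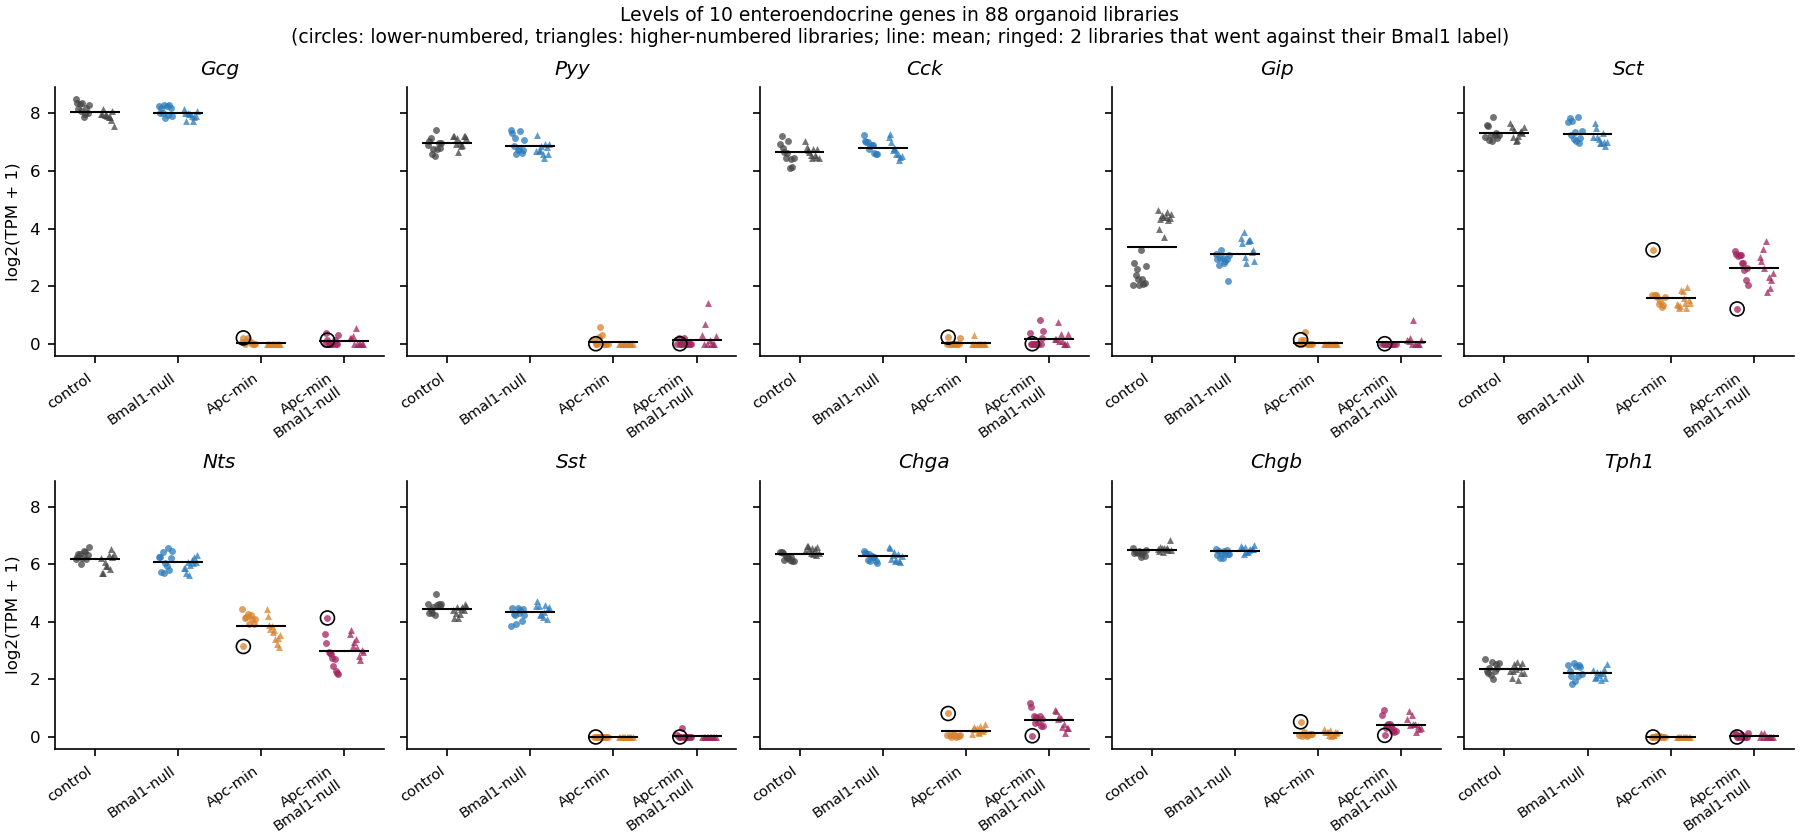
Level of each gene in every library (symbols, log2(TPM + 1)) for the 4 genotypes, 22 libraries each, with a line at the mean and rings around the 2 libraries that went against their labels. All 10 genes sit lower in both Apc-min genotypes, where Nts and Sct are the 2 that average above 1 TPM.

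With Apc wild type, loss of Bmal1 left most of these genes near their control level. Cck was the single gene called, in a limma fit of log2(TPM + 1) with time point as a factor and Benjamini-Hochberg adjusted p under 0.05 over all 12654 genes tested. Across all genes 3.56% were called, so nothing about the members as a group is read from 1 call in 10. In Bmal1-null libraries Cck ran from 81.49 to 154 TPM with a median of 108.4, and this range overlapped the control range over most of its length. Its mean was 113 ± 20.7 TPM against 101 ± 19.8 in control (SD, n = 22 each), 1.12-fold, and it was higher at 10 of 12 time points. The log2 difference was 0.17 ± 0.048 (SE, adjusted p = 0.0358). This call is fragile: it was lost in 15 of 21 alternatives, including 9 of the 12 fits that each left out 1 time point (adjusted p from 0.00673 to 0.134 over those 12) and the fit on means of library sets (adjusted p = 1).

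The other hormones were not called. Gcg ran from 209.73 to 312.08 TPM (median 256.4) in Bmal1-null organoids and differed by -0.02 ± 0.059 on the log2 scale. Sct (median 144) differed by -0.05 ± 0.066, and Pyy (median 110.9) by -0.09 ± 0.066. Nts (median 65.65) differed by -0.11 ± 0.064, and Sst (median 19.12) by -0.14 ± 0.064 with an adjusted p of 0.419. All of these ranges overlapped those of control. Of the granins, Chga had medians of 76.12 against 82.34 TPM, a difference of -0.10 ± 0.044 (adjusted p = 0.339), and Chgb differed by -0.02 ± 0.038. Tph1, with a median of 3.64 TPM, differed by -0.10 ± 0.062. The median difference of the 10 genes was -0.10 against 0.004 over all genes tested, and 3 of the 10, Cck, Sst and Chga, had an unadjusted p under 0.05, as did 1339 of all 12654 genes.

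Genes that act with these hormones were called in 0 to 2 cases per list on loss of Bmal1 with Apc wild type, beside the 3.56% called among all genes. Of 6 tested genes that handle amines, Ddc, the decarboxylase that completes serotonin synthesis, rose from 51.8 to 71.02 TPM (log2 difference 0.45, adjusted p = 5.49e-09, limma). In the same list Maob, which breaks amines down, fell from 17.3 to 12.4 TPM (adjusted p = 0.000308), and 4 did not pass. Of 11 tested genes of prohormone processing and granules, 1 fell, the secretogranin Scg2, from 8.50 to 6.89 TPM, and 10 did not pass. Of 14 tested transcription factors of the lineage, 1 rose, Foxa2 (14.3 to 17.1 TPM), and of 10 exocytosis genes 1 rose, Rims2 (0.868 to 1.49 TPM), which was tested only through its level in Bmal1-null organoids. Of 6 other hormone genes, Ghrl (ghrelin) and Insl5, a hormone of colonic L cells, among them, limma called 0, and 0 had an unadjusted p under 0.05. Of 8 further enteroendocrine markers 1 rose, Reg4, from 410 to 572 TPM; Reg4 is also found in other secretory cells. Of 5 nutrient sensors 1 rose, the fatty acid receptor Ffar2 (3.38 to 4.12 TPM), and of 5 hormone receptors and peptidases limma called 0, with 0 at an unadjusted p under 0.05. Beside these, 3 of 8 Paneth, 1 of 8 goblet and 2 of 8 enterocyte markers were called, and their part in the results was not tested.

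Gip separated the libraries of one genotype rather than the genotypes. In the 11 lower-numbered control libraries it ran from 3.1 to 8.6 TPM (mean 4.51 ± 1.70, SD), and in the 11 higher-numbered ones from 12.03 to 23.76 TPM (mean 19.5 ± 3.45). The ranges did not overlap, and the higher-numbered library was above the other at 10 of the 10 times with both. Gip was the single member of 10 with separate ranges in control, where 0.509% of all genes had them. In Bmal1-null organoids the sets overlapped, at 3.52 to 8.55 TPM and 5.97 to 13.8 TPM, as did those of the other 9 members; 0.127% of all genes were separate there. Among genes named after their values were seen, Insl5 ran the other way in control, at 17.88 to 25.97 TPM in the lower-numbered and 8.2 to 11.28 TPM in the higher-numbered libraries, and Fabp1, an enterocyte gene, ran from 0.64 to 2.19 and from 3.91 to 11.65 TPM. As a result, the direction of the Bmal1 difference in Gip depended on the set. Over both sets it was -0.24 ± 0.25 (adjusted p = 1), in lower-numbered libraries 0.47 (adjusted p = 0.0424) and in higher-numbered libraries -0.95 (adjusted p = 0.00326, all limma). Pyy (0.09 and -0.26), Sct (0.09 and -0.16), Gcg (-0.08 and 0.02) and Sst (-0.27 and 0.02) also changed sign between lower- and higher-numbered libraries. Unlike Gip, they were not called in either set.

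**Figure D2:**
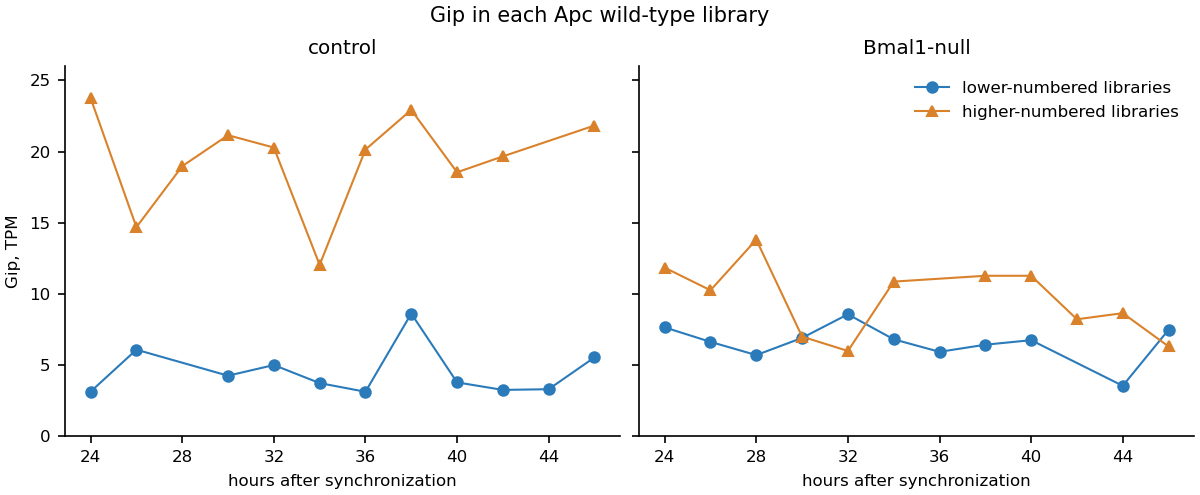
Gip level (TPM) against hours after synchronization in control (left) and Bmal1-null (right) organoids, with lower-numbered libraries as circles and higher-numbered libraries as triangles. The control sets stay apart, 3.1 to 8.6 against 12.03 to 23.76 TPM, and the Bmal1-null sets cross.

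In Apc-min organoids RNA of these genes was scarce: the 10 summed to 9.89 to 23.26 TPM (mean 16.5) against 827 to 1065 TPM in control. In bulk RNA, fewer cells of a type and less RNA per cell cannot be told apart. All 10 genes were lower in both comparisons of Apc genotype, with ranges that did not overlap and lower means at 12 of 12 time points. The share of all genes with separate ranges in these comparisons was not computed, so the separate ranges are a description. Across all genes 31.1% were called lower and 50.5% higher with Bmal1 wild type (13663 tested), and 38.8% and 45.7% in Bmal1-null organoids (13404 tested). In each comparison 8 of the 10 members were tested only because of their level in the Apc wild-type group, so the count of 10 and the differences of these 8 are a description; Sct and Nts passed in both groups. The median difference over all genes was 0.17 and 0.07 on the log2 scale, and 0.01 in both after rescaling by median-of-ratios factors. With that rescaling, 50.4% of calls were higher in each, against 61.8% and 54.1% as deposited.

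Gcg, the most abundant hormone in control, was listed at 0 in 16 of 22 Apc-min libraries and was at most 0.16 TPM. Its log2(TPM + 1) difference was -8.01 ± 0.055 (SE). Pyy was at 0 in 18 of 22 and at most 0.49 TPM (difference -6.92), and Cck was at 0 in 19 of 22 and at most 0.22 TPM (-6.60). These hormones were thus above 0 in at most 6 of the 22 libraries. Gip was at 0 in 19 of 22 and at most 0.34 TPM (-3.33 ± 0.24), and Sst was listed at 0 in all 22. Tph1 was at 0 in 20 of 22 and at most 0.03 TPM (-2.34). The granins remained at trace level, Chga from 0 to 0.76 TPM (-6.18) and Chgb from 0.02 to 0.44 TPM (-6.34). Both highest values are the library labelled number 9, without which they reached 0.37 and 0.21 TPM. The pseudocount of 1 TPM bounds these differences, so their order follows the control level and is no order of effect.

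Of the 10 genes, Sct and Nts were the 2 that stayed above a mean of 1 TPM. Sct ran from 1.36 to 8.58 TPM with a median of 1.815 in Apc-min organoids, and to 2.88 TPM without the library labelled number 9; its difference was -5.75 ± 0.11. Nts ran from 7.8 to 20.95 TPM with a median of 14.11, 0.191 of the control mean, with a difference of -2.31 ± 0.10 (adjusted p = 4.26e-21). Nts had been the seventh of the 10 genes in control and was the first here. It made up 83.9 ± 9.99% of the summed TPM of the 10 genes (SD, n = 22), against 7.82% in control.

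The second comparison of Apc genotype, within Bmal1-null organoids, uses other libraries on both sides. The sum of the 10 genes ran from 795.5 to 1117 TPM in Bmal1-null organoids, and from 7.82 to 24.65 TPM once Apc-min was added. Gcg was at 0 in 14 of 22 and at most 0.47 TPM (difference -7.93), Pyy at 0 in 15 and at most 1.66 TPM (-6.72), and Cck at 0 in 11 and at most 0.75 TPM (-6.63). Gip differed by -3.06, Sst by -4.30 and Tph1 by -2.20, and these were at 0 in 17, 20 and 14 of the 22 libraries. Chga (0.03 to 1.26 TPM, from 0.11 without the library labelled number 10) differed by -5.68 and Chgb (0.04 to 0.92 TPM, from 0.14 without it) by -6.02. Sct differed by -4.63 ± 0.13, to 0.0356 of the Bmal1-null mean, and Nts by -3.05 ± 0.12, to 0.112 of it. All 10 genes thus had lower levels with either state of Bmal1.

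Genes that act with the hormones were compared by list; the shares called among all genes, given above, are the background. Of 15 tested transcription factors of the enteroendocrine lineage, 11 fell and 3 rose with Bmal1 wild type, and 11 fell and 2 rose in Bmal1-null organoids. Neurog3, which specifies the lineage, fell from 8.30 to 0.0986 TPM, Insm1 from 7.55 to 0.20 TPM, Mnx1 from 10.1 to 0.928 TPM and Fev, a serotonin lineage factor, from 3.38 TPM to a mean of 0.00546 TPM. The factors named here are among those that fell. Summed over all 20 factors of the list, the mean level was 186.2 TPM in control and 163.6 TPM with Apc-min. With Bmal1 absent, these means were 184.9 and 121.1 TPM. In each comparison 10 of the 15 were tested only through the Apc wild-type group, which favours a lower call. The same holds, with Bmal1 wild type, for 9 of the 11 processing genes below, 2 of 6 amine genes, 5 of 7 other hormones, 1 of 12 exocytosis genes, 2 of 5 sensors and 3 of 5 receptors, whose counts are descriptions too. In Bmal1-null organoids it holds for 9 of 11 processing genes, 2 of 6 amine genes, 5 of 6 other hormones and 4 of 5 receptors. Of 11 tested genes of prohormone processing, 9 fell and 1 rose, and 10 fell and 1 rose. Ptprn2, a granule membrane protein, fell from 9.61 to 0.04 TPM and Scg2 from 8.50 to 0.0295 TPM, while Resp18 was listed at 0 in every Apc-min library. The gene of the list that did not pass with Bmal1 wild type was Cpe, carboxypeptidase E, which trims prohormones, at 25.6 and 27.8 TPM. Summed over all 13 processing genes, the mean level was 90.59 TPM in control and 89.28 TPM with Apc-min. With Bmal1 absent, it was 85.09 and 67.94 TPM.

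All 6 tested genes of amine handling, which includes serotonin, fell in both comparisons. The serotonin transporter gene Slc6a4 went from 16.2 to 0.0123 TPM, Maob from 17.3 to 0.00955 TPM, Maoa from 171.5 to 11.6 TPM and Ddc from 51.8 to 11.7 TPM. Among other hormones, 5 fell and 1 rose of 7 tested, and 5 fell of 6. Ghrl fell from 20.1 to 0.222 TPM, Insl5 from 15.6 to 0.108 TPM and Tac1, the substance P gene, from 8.80 to 0.435 TPM. Exocytosis genes were mixed with Bmal1 wild type, where 6 fell (Syt7 from 21.1 to 1.48 TPM) and 5 rose (Cadps from 0.574 to 3.72 TPM) of 12. Of these 12, 3 were tested only through Apc-min organoids, Cadps among them, which favours a higher call. In Bmal1-null organoids 9 fell and 1 rose of 11. Of these 11, 5 were tested only through the Apc wild-type group and 1 only through the Apc-min group, so these counts are descriptions. Of hormone receptors and peptidases, 4 of 5 and 5 of 5 fell, among them Dpp4, the peptidase that cleaves incretins, from 52.2 to 4.73 TPM. The long-chain fatty acid receptor Ffar4 fell from 21.8 to 2.19 TPM, 1 of 3 sensors that fell of 5 tested with Bmal1 wild type, while Ffar2 rose. In Bmal1-null organoids 3 of 4 sensors fell. Of 8 further enteroendocrine markers, 6 fell and 1 rose with Bmal1 wild type. With Bmal1 absent, 7 fell and 1 rose, and the rise was lost without the library labelled number 10. In these comparisons 3 and 5 of the 8 markers were tested only through the Apc wild-type group, so their counts are descriptions.

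Markers of the other epithelial cells moved in the same comparisons. With Bmal1 wild type, 8 of 8 goblet and 8 of 8 enterocyte markers fell, as did 7 of 8 Paneth markers and 4 of 5 genes of secretory progenitors. Of these, 3 goblet, 6 enterocyte, 4 Paneth and 3 progenitor genes were tested only through control. Summed levels went from 8612 to 12760 TPM in control to 72.79 to 325.8 TPM for goblet markers, and from 5448 to 8042 to 127.8 to 230.4 TPM for enterocyte markers. Atoh1, the factor that commits cells to the secretory fate, fell from 35.7 to 0.166 TPM. The sum of Paneth markers was 15750 to 28300 TPM in control and 392.2 to 3633 TPM in Apc-min organoids. The sums of 2 other lists were higher: progenitor genes averaged 263.9 and 377.8 TPM, where Hes6 rose, and tuft genes ran from 9.7 to 18.21 and from 23.09 to 133.8 TPM, where 5 of 6 genes fell and Avil rose from 2.41 to 63.2 TPM. Of 5 stem cell genes 3 fell and 2 rose, with mean sums of 987 and 380 TPM. Enteroendocrine genes were thus not alone in falling, and the part of other cells in the result was not tested.

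**Figure D3:**
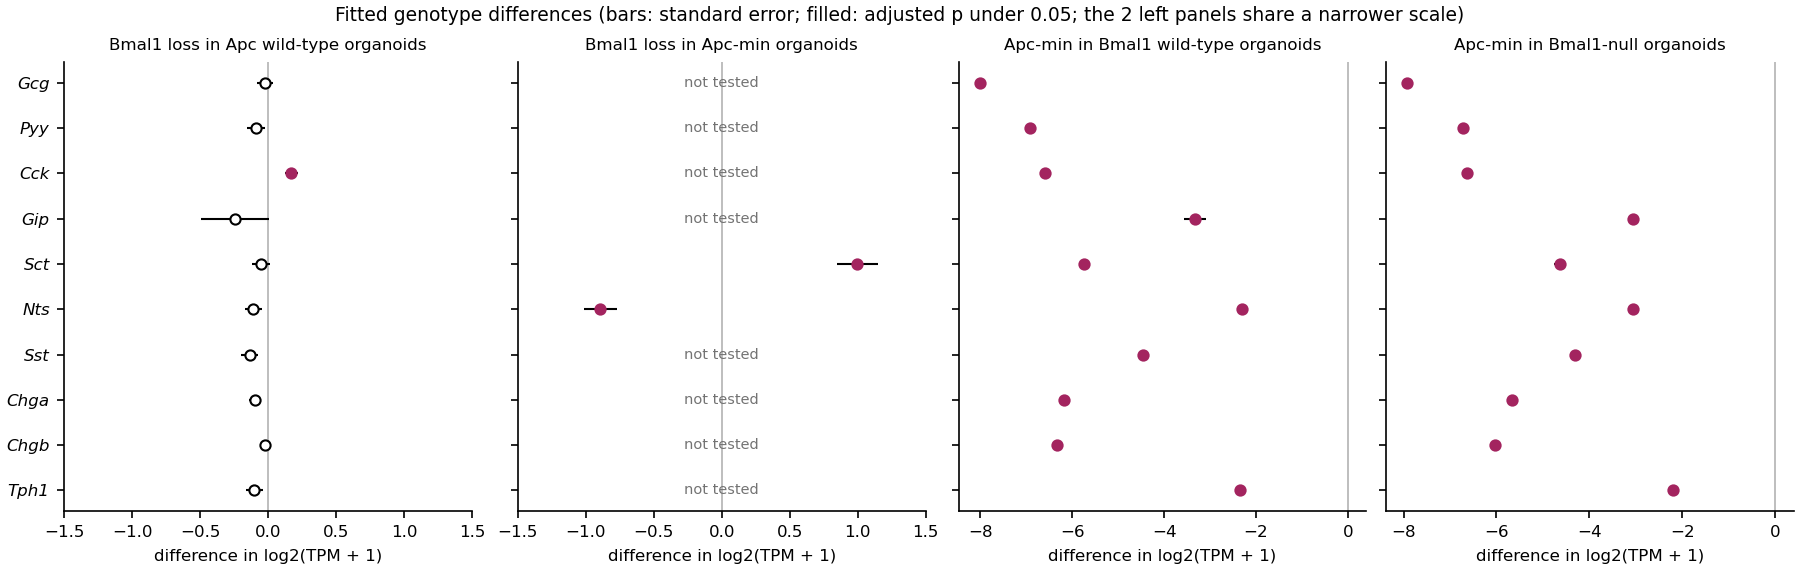
Log2(TPM + 1) difference of each gene in the 4 pairwise comparisons (points, limma estimate, filled where called; bars, SE); genes below 1 TPM in both groups are marked as not tested, and the axis of the Bmal1 panels is narrower. Both comparisons of Apc genotype lie far below 0 for every gene, and the Bmal1 difference is near 0 with Apc wild type and of opposite sign for Sct and Nts with Apc-min.

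With loss of Bmal1 in Apc-min organoids, the 2 members that stayed above a mean of 1 TPM differed in opposite directions. Only 2 of the 10 members, Sct and Nts, passed the filter of a mean of 1 TPM in a group, and both were called, Sct higher and Nts lower. Across all 12885 genes tested 60.3% were called, 24.6% higher and 35.7% lower, so a call by itself sets no gene apart. Of these calls 40.8% were higher, and 53.4% after rescaling by median-of-ratios factors; Sct and Nts kept their direction and call there. Sct in Apc-min Bmal1-null organoids ran from 1.31 to 10.84 TPM with a median of 5.6, against 1.36 to 8.58 TPM with a median of 1.815 in Apc-min organoids. The doubted pair widened this overlap: the highest Apc-min value is the library labelled number 9 and the lowest Apc-min Bmal1-null value the library labelled number 10. Without them the ranges were 1.36 to 2.88 and 2.51 to 10.84 TPM, which still overlapped. The mean ratio was 2.56 and the log2 difference 1.00 ± 0.15 (SE, adjusted p = 1.5e-06, limma), and 1.15 without the pair (adjusted p = 1.74e-11). Sct was higher at 11 of 12 time points.

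Nts ran from 3.54 to 16.54 TPM with a median of 6.715 in Apc-min Bmal1-null organoids, against 7.8 to 20.95 TPM with a median of 14.11 in Apc-min organoids. The ranges overlapped, also without the pair, where the highest Apc-min Bmal1-null value was 12.18 TPM. The mean ratio was 0.537 and the log2 difference -0.89 ± 0.12 (adjusted p = 1.74e-07, limma), and -0.99 without the pair; it was lower at 11 of 12 time points. The Nts difference was -1.26 in lower-numbered and -0.53 in higher-numbered libraries, both called, and that of Sct 0.84 and 1.13. On the means of the 2 library sets per genotype, Sct kept a difference of 1.02 (adjusted p = 0.0481) and Nts one of -0.85 (adjusted p = 0.105). Leaving out the pair as well, Sct differed by 1.18 (adjusted p = 0.0555). Nts then made up 51.8 ± 12.4% and Sct 39.4 ± 10.6% of the summed level of the 10 genes, where Sct held 13.7% in Apc-min organoids. These 2 genes differed in level by less than 1 SD in Apc-min Bmal1-null organoids.

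The other 8 members stayed below a mean of 1 TPM in both genotypes. Chga averaged 0.161 TPM with Bmal1 and 0.534 ± 0.309 TPM without it, and Chgb 0.104 and 0.363 ± 0.241 TPM, each higher at 11 of 12 time points. Without the doubted pair these means were 0.132 and 0.558 TPM, and 0.0881 and 0.379 TPM. With no filter on low values these 2 genes were called (log2 differences 0.37 and 0.28, adjusted p = 0.000154 and 4.28e-05), as were Cck at 0.14 (adjusted p = 0.038) and Tph1 at 0.03 (adjusted p = 0.0186). Cck was at 0 in 11 of 22 libraries of the higher group, so its difference rests on a few reads per library. The 6 called members without the filter were 5 higher and 1, Nts, lower. The share of all genes called in that fit is not given here, so nothing about the members as a group is read from this count.

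Genes of hormone handling that were still measurable went in both directions on loss of Bmal1 with Apc-min, beside the 24.6% called higher and 35.7% called lower among all genes. Both tested genes of prohormone processing fell, Cpe from 27.8 to 13.4 TPM (log2 difference -1.03, adjusted p = 4.02e-06, limma) and Pam, which amidates peptides such as secretin and cholecystokinin, from 60.3 to 53.8 TPM. Of 11 exocytosis genes 7 fell and none rose, with Cadps, a priming factor for granules, going from 3.72 to 0.444 TPM; 5 of the 11 were tested only through Apc-min organoids. Of 5 transcription factors 3 fell, Sox4 from 65.8 to 36.9 TPM, Foxa2 from 22.8 to 16.1 TPM and Hhex from 3.93 to 2.71 TPM. Amine genes split, with Ddc up from 11.7 to 25.6 TPM, Gch1 up from 9.79 to 12.8 TPM and the vesicle transporter Slc18a1 down from 5.91 to 3.45 TPM, of 4 tested. All 4 tested sensors were called: Ffar4 rose from 2.19 to 7.69 TPM, Abcc8 from 0.706 to 1.64 TPM and Lpar5 from 13.8 to 18.1 TPM, while Ffar2 fell from 7.56 to 1.01 TPM. Both tested receptors and peptidases fell, Dpp4 from 4.73 to 0.482 TPM and Sort1 from 38.8 to 29.4 TPM. Of 5 further enteroendocrine markers, Tm4sf4 rose from 1.21 to 12.4 TPM and 4 fell, Bex2 from 3.20 to 0.538 TPM among them. Of these, 2 of the 5 markers and 1 of the 2 receptors and peptidases were tested only through Apc-min organoids, and 1 sensor only through Apc-min Bmal1-null organoids. Of 2 other hormones 0 were called by limma and 1, the neuropeptide Y gene Npy, had an unadjusted p under 0.05 (1.31 and 0.539 TPM, adjusted p = 0.0722, and 0.0272 without the doubted pair).

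Cells other than enteroendocrine cells differed as well between these genotypes. Of 3 tested enterocyte genes 2 rose, Fabp2 from 6.50 to 41.1 TPM and Alpi from 0.342 to 3.39 TPM. Alpi was tested only through Apc-min Bmal1-null organoids, which favours a higher call. The same holds for 1 of the goblet and 1 of the Paneth genes below, and 1 goblet gene was tested only through Apc-min organoids. Of 6 tested goblet genes 3 rose and 3 fell, Fcgbp from 74.5 to 8.53 TPM among the latter, and the list's mean sum was 169 and 284.8 TPM. Of 5 Paneth genes 3 fell, Mmp7 from 1843 to 563 TPM among them, and 1 rose. Of 4 stem cell genes 3 fell, Lgr5 from 10.9 to 3.04 TPM among them. Outside the epithelial lists, Acta2, a smooth muscle actin gene, averaged 2.07 and 7.38 TPM. Lyz2, a myeloid lysozyme gene tested only through Apc-min organoids, averaged 10.5 and 0.579 TPM. The part of other cells in the results for Sct and Nts was not tested.

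Whether the effect of Bmal1 differed with Apc genotype was tested as an interaction over all 88 libraries. Sct, Nts, Chga and Chgb were called, 4 of 10, where 47.7% of all 13846 genes were. The Sct difference was larger with Apc-min by 1.08 ± 0.17 on the log2 scale (adjusted p = 1.33e-07, limma) and that of Nts lower by -0.74 ± 0.16 (adjusted p = 6.75e-05). Chga had an interaction of 0.48 ± 0.082 (adjusted p = 1.28e-06) and Chgb of 0.31 ± 0.067 (adjusted p = 8.85e-05), with means below 1 TPM in both Apc-min genotypes, so that these 2 genes were tested through their Apc wild-type level. Their sizes depend on the pseudocount, and with 0.1 TPM they were 1.41 and 1.13. Without the doubted pair the 4 values were 1.23, -0.83, 0.54 and 0.35. On means of library sets only Sct was called (1.08, adjusted p = 0.0213), and Nts, Chga and Chgb had adjusted p of 0.167, 0.192 and 0.309. Across all genes 3.21% were called in that fit. In higher-numbered libraries alone the Nts interaction was -0.45 and was not called (adjusted p = 0.057, limma). Gcg (0.08), Pyy (0.18), Cck (-0.04), Gip (0.26), Sst (0.15) and Tph1 (0.14) were not called. The median over the 10 genes was 0.17 against -0.05 over all genes, which moved to 0.02 with median-of-ratios factors; calls were then 52.9% higher against 38% as deposited.

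Promoter sequences are shown for the 3 genes called in a comparison of Bmal1 genotype, because Bmal1 with its partner Clock binds the E-box CACGTG. They are taken from the 250 bases just before the RefSeq start site (GRCm38.p6), without bases that lie inside the annotated gene. They are written 5′ to 3′ on the strand of the gene, with any match to CACGTG in capitals. For Nts this leaves 182 bases, and the bases nearest its RefSeq start are not shown. Cck is chr9:121495695-121495944, Sct is chr7:141279134-141279383 and Nts is chr10:102490487-102490668, all on the minus strand.
Cck: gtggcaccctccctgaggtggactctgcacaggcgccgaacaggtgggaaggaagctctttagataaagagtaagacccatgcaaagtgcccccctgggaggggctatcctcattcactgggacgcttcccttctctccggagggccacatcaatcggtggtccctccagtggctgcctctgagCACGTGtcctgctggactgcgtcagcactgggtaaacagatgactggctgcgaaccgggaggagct
Sct: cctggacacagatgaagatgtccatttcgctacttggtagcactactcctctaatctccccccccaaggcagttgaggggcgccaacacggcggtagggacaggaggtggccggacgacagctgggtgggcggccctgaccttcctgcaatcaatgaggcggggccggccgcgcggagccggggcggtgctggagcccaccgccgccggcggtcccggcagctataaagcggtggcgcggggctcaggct
Nts: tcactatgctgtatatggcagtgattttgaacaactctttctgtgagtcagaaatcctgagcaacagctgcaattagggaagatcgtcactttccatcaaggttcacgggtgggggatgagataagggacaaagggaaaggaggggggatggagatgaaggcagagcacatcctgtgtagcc
The Cck window holds 1 match to CACGTG, which reads the same on both strands, and the Sct and Nts windows hold none. Across 12 windows of the 10 members, Cck was the 1 gene with a match, and 6.02% of 32851 promoter windows of 250 bases hold one. The core CTTTGA bound by TCF factors of the Wnt pathway, searched on both strands (TCAAAG on the other), was present for 1 member, Tph1, and in 13.8% of all windows. The motifs do not overlap each other, and a match describes letters, not binding.

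Change over time was tested within each genotype, and no test compared a trend with a cycle. A 24 h cosine was called for none of 10 members in control and none of 10 in Bmal1-null organoids (limma F test, Benjamini-Hochberg adjusted), where 0.0557% and 0% of all genes were called. At an unadjusted p under 0.05 there was 1 member in each, Sst in control (p = 0.012, adjusted 0.344, limma) and Cck in Bmal1-null organoids (p = 0.00181, adjusted 0.212, limma). In Apc-min organoids neither Sct nor Nts was called, also unadjusted, against 12% of all genes. In Apc-min Bmal1-null organoids Nts was called, with an amplitude of 0.45 ± 0.11 on the log2 scale and a peak at 28.2 h (adjusted p = 0.0476), against 2.59% of genes. That call was lost with a pseudocount of 0.1 TPM (adjusted p = 0.0515) and without a filter (0.104). Without the library labelled number 10, Nts had an adjusted p of 0.0371 and Sct was called too, with an amplitude of 0.46 (adjusted p = 0.0133, limma).

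A straight-line trend from 24 to 46 h was called for Cck in control and for Cck and Chga in Bmal1-null organoids. In control, where 2.2% of all genes had a trend, Cck ran from 99.89 to 147.38 TPM in the 7 libraries of 24 to 30 h and from 67.03 to 108.67 TPM in the 7 of 40 to 46 h. These ranges overlap, and Cck fell by 0.59 ± 0.14 on the log2 scale over the series (adjusted p = 0.0247, limma), a call lost with no filter (adjusted p = 0.0552) and with median-of-ratios factors (fell by 0.49, adjusted p = 0.19). In Bmal1-null organoids, where 6.71% of genes had a trend, Cck ran from 104.08 to 154 TPM early and from 81.49 to 98.47 TPM late, without overlap. It fell by 0.70 ± 0.081 there (adjusted p = 5.61e-06). Chga fell by 0.33 ± 0.080 in Bmal1-null organoids (adjusted p = 0.014), from 69.81 to 95.65 TPM early to 65.3 to 80.03 TPM late, and in control its trend was -0.26 ± 0.10 (adjusted p = 0.203).

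In Apc-min Bmal1-null organoids, where 8.44% of genes had a trend, Nts went from 6.77 to 16.54 TPM early to 3.54 to 7.1 TPM late; the highest early value without the library labelled number 10 was 12.18 TPM. It fell by 1.28 ± 0.20 on the log2 scale (adjusted p = 0.000145, limma) and by 1.16 without that library (adjusted p = 2.96e-05), and the ranges overlapped between 6.77 and 7.1 TPM. Sct had a trend of -0.80 (adjusted p = 0.168) that became -1.06 without the library labelled number 10 (adjusted p = 0.00246). In Apc-min organoids, where 31.2% of genes had a trend, Nts had -0.46 (adjusted p = 0.172) and Sct was not called either. Whether trends differed between genotypes was not tested, and a cosine of 24 h cannot be told apart from another single rise and fall in a series of this length.

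**Figure D4:**
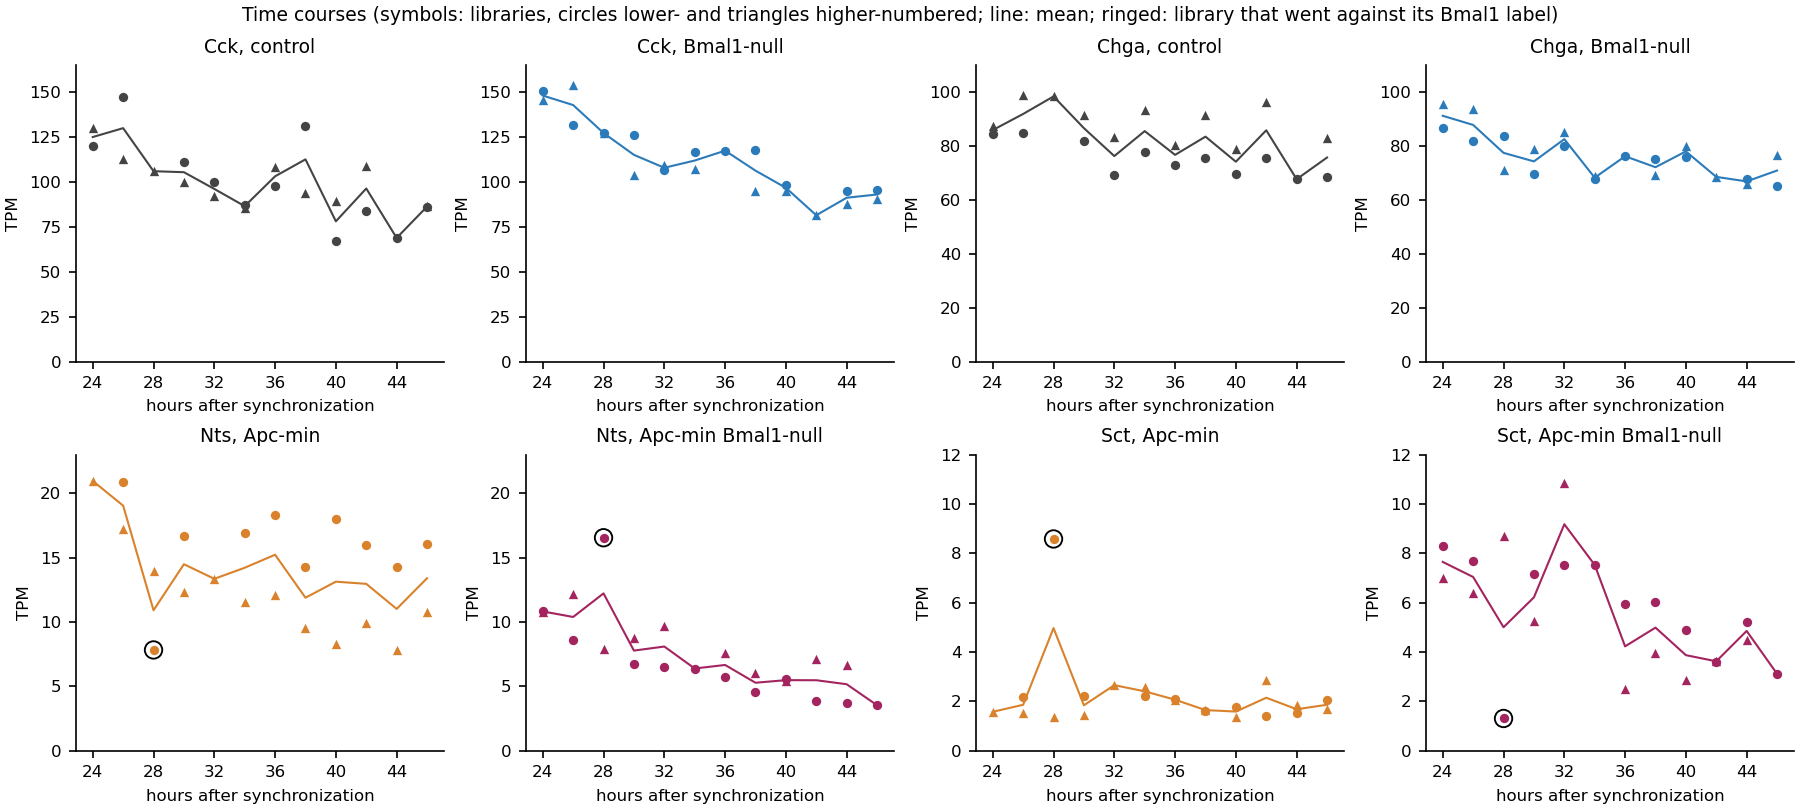
Level (TPM) against hours after synchronization for Cck and Chga with Apc wild type and for Nts and Sct with Apc-min, with every library as a symbol, lines through the means at each time, and a ring around each library that went against its label. Cck declines in control and Bmal1-null organoids, from 99.89 to 147.38 TPM early to 67.03 to 108.67 TPM late in control, and Nts declines in Apc-min Bmal1-null organoids.

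The genes most like each hormone were sought by Pearson r of log2(TPM + 1) over the 88 libraries, after subtracting each genotype's mean, among 12964 genes; libraries share line, depth and time, so r is descriptive. Gip had the highest values: Gm14851 (0.878), AY761184 (0.869) and Defa29 (0.822), a group that includes alpha-defensins, the antimicrobial peptides of Paneth cells. Nts was most like Cpe (0.811, and 0.771 without the doubted pair), then Perp (0.772) and Cyp3a13 (0.736). Sct was most like Phgr1 (0.79), at 0.662 without the pair. Chga was most like the simple-epithelium keratins Krt18 (0.778) and Krt8 (0.741), and Chgb had Tuft1 (0.685) and Chga (0.671) as its first and second. Tph1 had Cps1 (0.666) and the granule gene Ptprn2 (0.664), and Gcg had Itih5 (0.674). Cck had Ly6a (0.63) among its genes, and Pyy had Ndufb7 (0.623). Sst had no gene above Tpsg1 at 0.467.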

How the data were processed

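RNA was measured in 88 mouse organoid libraries of 4 genotypes. The authors deposited TPM in 1 table per genotype. GRCm38, RSEM 1.3.0 and STAR 2.5 are named in the submitters' processing notes, with no role given. An alignment summary deposited by the authors holds read counts and percent values from the aligner's log, per its headers. It was used here for depth and for the percentage of unmapped reads listed as too short. Libraries came from a directional kit per the labels' protocols, and the strand setting of counting is not given in the sources used here. The 88 quantile-normalized columns could not be matched to libraries and were not used.

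Genes that averaged at least 1 TPM in a compared group were tested on log2(TPM + 1) with limma 3.58.1 (R 4.3.3, variance trend), time as a factor, and Benjamini-Hochberg adjustment over all genes at 0.05. "Rose", "fell" and "called" mean that this test was passed. Errors of differences are standard errors. Time was tested within genotypes by a 24 h cosine and a linear trend. Descriptive values used python 3.11.15 and pandas 2.3.3. The fits were tested on simulated data with independent noise in each library. The simulated data held no differences between lines or library sets, so they do not cover these.

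The members and 18 further gene lists were chosen with earlier results of these data known; 191 of 192 listed genes matched. Named genes are all members, up to 4 called genes with the largest differences per list (2 for lists of other cells), and the 3 genes most like each member, of which the text gives some, and a few named by this rule are left out here. Gene positions are from GENCODE M21 and promoters from RefSeq. Alternatives were a pseudocount of 0.1 TPM, no filter or one at 5 TPM, median-of-ratios factors, 1 fit of all genotypes, library sets as a term, as means or alone, leaving out each time point, and leaving out the doubted pair.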

Additional observations from a re-analysis of the deposited data

Results flagged for a closer look

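For 4 genes the effect of Bmal1 loss differed between Apc wild-type and Apc-min organoids by the interaction term over 88 libraries, where 47.7% of all genes were called. Sct had an interaction of 1.08 ± 0.17 (SE) on the log2(TPM + 1) scale, with means of 162 and 158 TPM in control and Bmal1-null organoids and of 2.20 and 5.64 TPM in the Apc-min pair of genotypes, with and without Bmal1. Nts had -0.74 ± 0.16, with means of 73.1 and 66.96 TPM and of 13.9 and 7.49 TPM in the same order. Chga had 0.48 ± 0.082, with 82.3 and 76.6 TPM and 0.161 and 0.534 TPM. Chgb had 0.31 ± 0.067, with 88.4 and 86.5 TPM and 0.104 and 0.363 TPM. Chga and Chgb averaged below 1 TPM in both Apc-min genotypes, so they were tested through their Apc wild-type level. Their sizes depend on the pseudocount, and with 0.1 TPM they were 1.41 and 1.13. On means of library sets the calls of Nts, Chga and Chgb were lost (adjusted p = 0.167, 0.192 and 0.309, limma), and 3.21% of all genes were called.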

How the results depend on the processing

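Both comparisons of Apc genotype kept 10 of 10 genes called, all lower, under every alternative run that tested all 10. In each, 8 of the 10 were tested only through the Apc wild-type group, which favours a lower call, so this count is a description. Across all genes the main fits called 31.1% lower with Bmal1 wild type and 38.8% lower in Bmal1-null organoids. For loss of Bmal1 with Apc wild type, the 1 call (Cck) became 0 without a filter, with median-of-ratios factors, on set means and in the fit of all 4 genotypes, and between 0 and 1 on leaving out time points. With Apc-min, the 2 calls became 6 without a filter and 1 on set means. The 4 interaction calls became 1 on set means and were 4 to 5 on leaving out time points. Across all genes, set means called 0.0948% for loss of Bmal1 with Apc wild type, 2.61% with Apc-min and 3.21% for the interaction. The main fits had called 3.56%, 60.3% and 47.7%. Shares of all genes without a filter or without single time points are not given here, so these counts are descriptions. The linear trend in control went from 1 call to 0 without a filter and with median-of-ratios factors. In Apc-min Bmal1-null organoids the cosine went from 1 call to 0 with a pseudocount of 0.1 TPM and without a filter, and to 2 without the doubted library, and the linear trend went from 1 call to 2 without a filter and without that library. Gip reversed in lower-numbered libraries, to 0.47 for loss of Bmal1 with Apc wild type and to -0.56 for the interaction. The cause of these changes was not tested. No paired analysis was possible because the labels give no line or pair for a library. The quantile-normalized alternative was not run, since its columns could not be matched to libraries.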

Other observations

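The interaction of Bmal1 loss with Apc genotype was also read for the other enteroendocrine lists (88 libraries, limma, Benjamini-Hochberg adjusted p under 0.05), beside the 47.7% called among all genes. Of 12 tested exocytosis genes 8 had a lower and none a higher difference with Apc-min, with a list median of -0.52 against -0.05 over all genes. Cadps (-1.60) and Rims2 (-1.02) had the largest values. Of 7 other hormone genes 2 were called: the ghrelin gene Ghrl at 0.63, with means of 20.1 and 19.6 TPM in Apc wild-type and of 0.222 and 0.926 TPM in Apc-min organoids, and Tac1 at -0.26. Among nutrient sensors, Ffar4 (1.57) and Abcc8 (0.72) had a higher and Ffar2 (-2.13) a lower difference. Of 15 lineage transcription factors 4 were called, all lower, with Sox4 at -0.78, and of 11 processing genes 3, Scg2 (0.32) higher and Cpe (-0.93) and Pcsk1 (-0.47) lower. Ghrl, Tac1, Scg2 and Pcsk1 averaged below 1 TPM in both Apc-min genotypes and were tested through their Apc wild-type level. Their values are thus a description. On means of library sets 3.21% of all genes were called, and the calls of these lists in that fit are not given here. Of 6 amine genes 3 were higher and 1 lower, of 5 receptors and peptidases 2 were lower, and of 8 further markers 1 was higher and 4 lower.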
